A study of Mus musculus with 4 samples.

Results

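The 9 genes described here, P2ry12, P2ry13, Tmem119, Sall1, Siglech, Gpr34, Olfml3, Fcrls and Csf1r, are used as markers of homeostatic microglia, the resident macrophages of the brain parenchyma in their surveying state. They were chosen by gene symbol, and all 9 were found once each among the 32285 genes of the files and had counts in every library. RNA was captured on 10x Visium slides, whose barcoded spots each cover several cells, from 10 µm sections of fresh-frozen mouse brain. The series holds 2 control libraries from Pdcd10fl/fl mice and 2 knockout libraries from Slco1c1-iCreERT2;Pdcd10fl/fl littermates, in which a tamoxifen-dependent Cre driven by the brain endothelial gene Slco1c1 deletes floxed Pdcd10 (Ccm3). All mice received 50 µg of 4-hydroxytamoxifen by the intragastric route on postnatal day 1, and the knockouts were analysed on day 65 with vascular lesions. That age is stated for the knockouts, and the controls are described as their littermates. Both groups carry the floxed allele, and only the knockouts carry Cre. The titles place all 4 libraries in normoxia, one label places the knockouts in hypoxia, and the shared protocol gives 12% oxygen for 2 days. If that label holds, oxygen and genotype cannot be told apart. The labels do not say whether replicates of a group are separate mice, and p-values then cover only how these libraries vary, which may be technical.

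Microglia keep their homeostatic programme through Csf1r, the receptor of Csf1 and interleukin 34, through transforming growth factor β signalling, and through transcription factors such as Sall1 and PU.1 (Spi1). Their processes sense purines through the P2Y receptors P2ry12 and P2ry13, and on injury or when they engulf debris these receptors and other homeostatic genes are commonly turned down. Gpnmb, a transmembrane glycoprotein, and Lgals3, the lectin galectin-3, are commonly raised in phagocytic microglia and macrophages. The comparison asks how far each of the 9 genes differed between genotypes, and whether the fall was found where transcripts of Gpnmb and Lgals3 were counted.

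The promoters show what sequence lies at the start of some of these genes. RefSeq promoter sequences (GRCm38.p6, the same build as mm10), each of 250 bases before and 50 bases from the annotated start, were in the tables for 6 of the 9 members: P2ry12, P2ry13, Fcrls, Olfml3, Siglech and Sall1. Printed below are P2ry12, the member with the largest fall, and the 3 members in which any searched motif was found. They lie at chr3:59262936-59263235 (P2ry12), chr3:59210833-59211132 (P2ry13) and chr3:87263475-87263774 (Fcrls), all on the minus strand, and at chr7:55767934-55768233 (Siglech) on the plus strand. Each is written 5′ to 3′ on the strand of its gene, and capitals mark the letters GAGGAA, a core of PU.1 sites, or their reverse complement TTCCTC.
P2ry12: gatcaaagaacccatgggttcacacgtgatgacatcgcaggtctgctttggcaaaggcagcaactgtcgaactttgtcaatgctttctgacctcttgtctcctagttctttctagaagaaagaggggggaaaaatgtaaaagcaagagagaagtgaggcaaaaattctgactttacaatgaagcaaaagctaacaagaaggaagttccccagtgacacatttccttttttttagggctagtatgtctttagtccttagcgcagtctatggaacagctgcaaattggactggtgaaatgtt
P2ry13: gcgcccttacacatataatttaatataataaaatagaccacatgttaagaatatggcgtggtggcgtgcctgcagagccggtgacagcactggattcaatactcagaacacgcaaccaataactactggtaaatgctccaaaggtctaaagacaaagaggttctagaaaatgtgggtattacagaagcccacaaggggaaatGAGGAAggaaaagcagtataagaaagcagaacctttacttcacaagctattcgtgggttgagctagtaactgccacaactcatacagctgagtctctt
Fcrls: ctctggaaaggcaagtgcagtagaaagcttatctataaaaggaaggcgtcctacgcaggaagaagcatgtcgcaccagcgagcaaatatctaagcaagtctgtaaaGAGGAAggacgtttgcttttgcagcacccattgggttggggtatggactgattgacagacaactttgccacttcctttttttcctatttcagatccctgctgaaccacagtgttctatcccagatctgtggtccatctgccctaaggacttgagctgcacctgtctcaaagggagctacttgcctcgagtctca
Siglech: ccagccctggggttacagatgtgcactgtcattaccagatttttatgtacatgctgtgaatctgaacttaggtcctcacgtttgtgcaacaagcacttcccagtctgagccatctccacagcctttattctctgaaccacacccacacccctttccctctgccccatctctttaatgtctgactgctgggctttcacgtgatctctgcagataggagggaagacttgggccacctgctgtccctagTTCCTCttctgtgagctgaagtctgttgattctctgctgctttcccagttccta

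The 6-base core began 48 bases before the annotated start in P2ry13, 144 bases before it in Fcrls and 4 bases before it, on the opposite strand, in Siglech. Of 32851 promoters of that length, 28.3% held GAGGAA on either strand. The longer letters GAGGAAGT (PU.1, which contains the 6-base core, 3.20% of all promoters), the letters GGAA and GAAA set 2 bases apart (PU.1 with IRF, 2.72%), CTA and TAG set 4 bases apart (MEF2, 3.69%) and GTCTAGAC (SMAD, 0.213%) were in none of the 8 promoters of the 6 members, 3 of which belong to Sall1. P2ry12 showed none of the 5 motifs in its window, nor did Olfml3 and Sall1. A match of letters is a description of the window and shows no binding.

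The libraries held 50148764 and 64317838 UMIs (unique molecular identifiers, 1 per captured RNA molecule) in the controls against 53514669 and 74467027 in the knockouts. Spots with at least 1000 UMIs, 2931 to 4599 per library, were summed for whole-section levels, given as CPM (UMI counts set to a common library total, with edgeR's TMM factors). Levels in classes of spots and sums over lists are given as unscaled CPM, without those factors. All 4992 barcodes are shared by all 4 libraries, because they are the positions of the slide. Brain was checked with Snap25, a synaptic gene, at 2222 to 2622 CPM. Pdcd10, whose deletion is limited to endothelium, measured 90.9 and 82.3 CPM in control 1 and 2 and 80.3 and 83.0 CPM in knockout 1 and 2 (log2 fold change -0.08, SE 0.0751, adjusted p = 0.410 by edgeR), so these sections do not check the genotype. The sections differed in other cells too: the oligodendrocyte genes Mag and Mog were at 298 and 380 CPM and at 181 and 218 CPM in the controls, against 98.0 and 74.9 CPM and 43.6 and 36.9 CPM in the knockout sections. The 3 endothelial genes Cldn5, Pecam1 and Flt1 summed to 70.3 and 77.9 unscaled CPM against 248 and 221. Their part in the results below was not tested.

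Across whole sections, 7 of the 9 genes were lower in the knockouts, Csf1r was higher and Sall1 did not pass the test. Genes were called at an adjusted p under 0.05 (edgeR quasi-likelihood test, Benjamini-Hochberg) over 17546 genes, of which 18.3% were called lower and 20.1% higher. The median log2 fold change, knockout over control, was -0.81 over the 9 genes and -0.00082 over all genes tested. In these sections fewer microglia and less of each RNA per cell cannot be told apart.

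The P2Y receptors fell by unequal amounts. P2ry12, an ADP receptor that guides microglial processes toward injury, measured 38.7 and 45.9 CPM in control 1 and 2 and 13.1 and 12.5 CPM in knockout 1 and 2. Both knockout libraries lie far below both controls, and the groups do not overlap. The log2 fold change was -1.73 (SE 0.0980, adjusted p = 4.01e-05), which leaves 30.2% of the control level. P2ry13, a related ADP receptor, measured 6.28 and 7.29 CPM in control 1 and 2 and 4.14 and 3.63 CPM in knockout 1 and 2, again without overlap (log2 fold change -0.81, SE 0.136, adjusted p = 0.00388). The genes are neighbours on chromosome 3, P2ry13 from 59207892 to 59210882 and P2ry12 from 59216271 to 59262985 (GRCm38.p6). Both lie within the span of Med12l, a Mediator subunit gene read from the opposite strand, which also holds P2ry14. Med12l (23.1 and 23.8 against 21.8 and 21.1 CPM, adjusted p = 0.189) and P2ry14, a receptor for UDP-sugars (3.77 and 4.23 against 4.06 and 3.43 CPM, adjusted p = 0.612), did not pass the test. Of 8 P2Y relatives and neighbours, 4 could be tested and 1 passed, P2ry2, a receptor for ATP and UTP, which rose 3.68-fold (log2 SE 0.252, adjusted p = 0.00161) from 0.389 and 0.293 CPM to 1.24 and 1.25 CPM.

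The other surface receptors split. Gpr34, a receptor for lysophosphatidylserine on the X chromosome (13622650 to 13640859), measured 14.4 and 16.4 CPM in control 1 and 2 and 5.47 and 6.02 CPM in knockout 1 and 2, a log2 fold change of -1.42 (SE 0.109, adjusted p = 0.000145). Siglech, a sialic acid-binding lectin on chromosome 7 (55768154 to 55779448) that plasmacytoid dendritic cells also express, was at 6.31 and 7.88 CPM against 2.86 and 2.92 CPM (log2 fold change -1.30, SE 0.147, adjusted p = 0.000788). For both genes each knockout library was below each control library. Fcrls, an Fc receptor-like scavenger receptor on chromosome 3 (87250736 to 87263765), measured 19.1 and 22.3 CPM in control 1 and 2 and 11.6 and 12.9 CPM in knockout 1 and 2 (log2 fold change -0.76, SE 0.104, adjusted p = 0.00177). The fall of Fcrls was the one that did not pass with every spot thinned to 1000 UMIs (-0.40, adjusted p = 0.117). Csf1r, on chromosome 18 (61105572 to 61131139), went the other way, with 49.6 and 59.0 CPM in the control sections against 75.8 and 75.9 CPM in the knockout sections. Its groups do not overlap either, and it rose 1.40-fold (log2 fold change 0.48, SE 0.0911, adjusted p = 0.00636).

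Of the remaining members, Olfml3 and Tmem119 fell and Sall1 did not pass the test. Olfml3, a secreted matrix-associated protein (chromosome 3, 103735394 to 103738001), measured 21.6 and 25.1 CPM in control 1 and 2 and 12.1 and 13.02 CPM in knockout 1 and 2, a log2 fold change of -0.89 (SE 0.0986, adjusted p = 0.000702). Tmem119, a membrane protein used to stain microglia apart from blood-derived macrophages (chromosome 5, 113793729 to 113800396), was at 17.3 and 19.9 CPM against 12.1 and 11.5 CPM (log2 fold change -0.66, SE 0.0966, adjusted p = 0.00232). In both genes the knockout libraries lie below both controls. Sall1, a zinc finger transcription factor of microglial identity (chromosome 8, 89027242 to 89044162), measured 10.3 and 12.1 CPM in control 1 and 2 and 11.5 and 11.6 CPM in knockout 1 and 2. The knockout values lie between the control values (log2 fold change 0.04, SE 0.103, adjusted p = 0.795).

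**Figure D1:**
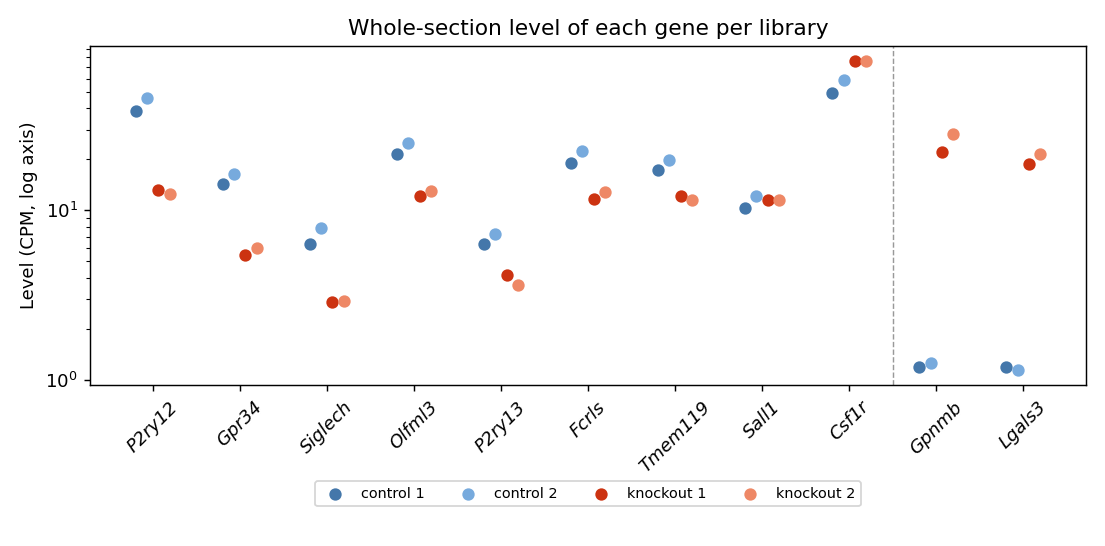
Level of each of the 9 genes, and of Gpnmb and Lgals3 right of the dashed line, in each library over whole sections (CPM, log axis; 1 point per library). From P2ry12 to Tmem119 both knockout points lie below both control points, Sall1 overlaps, and Csf1r, Gpnmb and Lgals3 lie higher in the knockouts.

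Gpnmb and Lgals3 were rare in the controls and common in the knockouts. Gpnmb measured 1.19 and 1.25 CPM in control 1 and 2 and 22.1 and 28.4 CPM in knockout 1 and 2, and Lgals3 1.19 and 1.14 CPM against 18.7 and 21.6 CPM. To place these transcripts, spots with at least 5000 UMIs (2267, 2557, 2952 and 3468 in control 1, control 2, knockout 1 and knockout 2) were thinned to 5000 UMIs each. Such a spot was counted as holding phagocyte transcripts if at least 1 UMI of Gpnmb or Lgals3 was left. This held for 31 spots of control 1 (1.37%, 95% Wilson interval 0.965 to 1.93) and 29 of control 2 (1.13%, 0.791 to 1.62). In the knockouts it held for 524 spots (17.8%, 16.4 to 19.2) and 734 spots (21.2%, 19.8 to 22.6). The intervals cover counting error only, and a spot with 0 such UMIs at this depth may still cover a phagocyte. The share of spots with a P2ry12 UMI ran the other way, at 18.0% and 19.2% in the controls against 6.44% and 7.41% in the knockouts. Spots with UMIs of at least 3 of the 9 genes were 6.97% and 7.82% of all in the controls, against 2.85% and 3.86% in the knockouts.

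In spots without a UMI of either phagocyte gene, the fall was there in the same 7 genes. Of 15007 genes tested there, 17.0% were called lower and 17.6% higher; the members gave 7 lower, and Csf1r again higher. P2ry12 was counted at 43.1 and 46.3 unscaled CPM in such control spots and at 14.4 and 15.1 in such knockout spots. Its log2 fold change was -1.65 (SE 0.0972, adjusted p = 6.25e-09), against -1.73 over whole sections. Gpr34 had 15.9 and 16.5 unscaled CPM against 6.10 and 6.88 (log2 fold change -1.37, SE 0.145), and Siglech 7.07 and 6.80 against 3.54 and 3.15 (-1.11, SE 0.207). For these 3 genes no knockout library reached a control library.

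P2ry13 fell by 1.10 (SE 0.206), Olfml3 by 0.91 (SE 0.113), Fcrls by 0.81 (SE 0.124) and Tmem119 by 0.59 (SE 0.126) on the log2 scale in these spots. Csf1r rose 1.34-fold, from 56.7 and 56.5 to 77.3 and 80.2 unscaled CPM. Sall1 was at 11.002 and 12.4 against 11.7 and 13.4 unscaled CPM (log2 fold change 0.05, SE 0.141, adjusted p = 0.835). The median over the 9 genes was -0.91, and over all genes 0.0019. When spots were instead sorted by their full counts before thinning, P2ry12 stood at -1.68 and Gpr34 at -1.45.

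**Figure D2:**
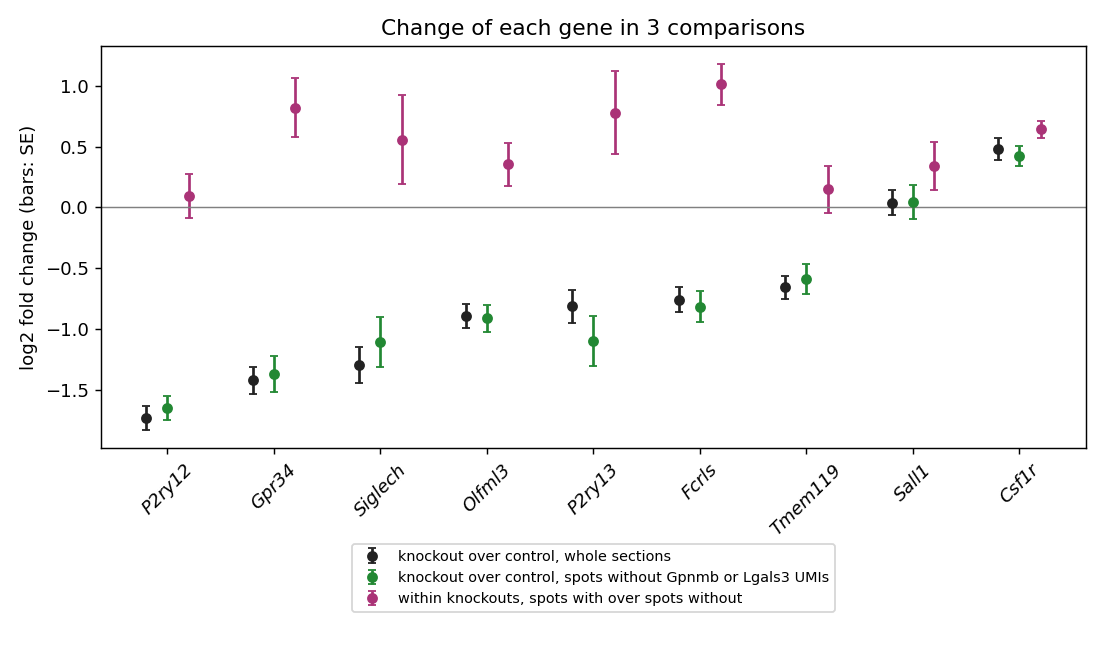
Log2 fold change with its SE for each of the 9 genes in 3 comparisons: knockout over control in whole sections (black), knockout over control in spots without Gpnmb or Lgals3 UMIs (green), and, within the knockouts, spots with such UMIs over spots without (purple). For P2ry12 the black and green points are -1.73 and -1.65, and all 9 purple points are above 0, from 0.10 for P2ry12 to 1.01 for Fcrls.

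Within the knockout libraries, none of the 9 genes was lower in spots that held phagocyte transcripts than in spots of the same library that did not. Of 14705 genes, 6.10% were called lower and 5.47% higher in such spots, in a fit with the library as a block. No member was called lower, also at an unadjusted p under 0.05 by edgeR and by DESeq2, and 3 were called higher. Csf1r stood at 77.3 and 80.2 unscaled CPM without and 116 and 131 with phagocyte UMIs (log2 difference 0.64, SE 0.0708, adjusted p = 2.86e-17). Fcrls stood at 11.7 and 13.5 without and 21.4 and 29.4 with them (1.01, SE 0.166, adjusted p = 6.38e-08), and Gpr34 at 6.10 and 6.88 against 12.98 and 10.6 (0.82, SE 0.242, adjusted p = 0.00984). In all 3 genes both knockout libraries were higher in the spots with phagocyte UMIs.

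These 3 calls rest on having both knockout libraries. With knockout 1 left out, the adjusted p was 0.388 for Csf1r, 0.513 for Fcrls and 1.00 for Gpr34, and with knockout 2 left out it was 1.00 for each of the 3. The log2 differences stayed positive when any 1 library was left out, at 0.57 to 0.69 for Csf1r, 0.85 to 1.11 for Fcrls and 0.61 to 1.07 for Gpr34. Calls over all genes fell as well, from 897 lower and 805 higher to 29 and 19 without knockout 1 and to 18 and 5 without knockout 2. DESeq2 gave an adjusted p for 3 of the 9 members and called 0 of those, with 0.375 for Csf1r; it found 3 of the 9 higher at an unadjusted p under 0.05. P2ry12 itself was at 14.4 and 15.1 unscaled CPM in the knockout spots without phagocyte UMIs and at 14.5 and 17.2 in those with them, from 38 and 63 UMIs in the latter. The log2 difference of P2ry12 was 0.10 (SE 0.180, adjusted p = 0.833). The other members that did not pass had log2 differences of 0.78 (P2ry13), 0.56 (Siglech), 0.36 (Olfml3), 0.34 (Sall1) and 0.15 (Tmem119), each also positive.

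Few control spots held phagocyte UMIs, which limits the same comparison there. Those spots had 7 and 3 UMIs of P2ry12 in all. Within the controls no member was called lower or higher by edgeR (1 lower at an unadjusted p under 0.05; DESeq2 called 0), where 0.741% of genes were called lower and 0.700% higher. Between genotypes in spots with phagocyte UMIs, 7 members could be tested, not P2ry13 and Siglech, and 0 were called in either direction. At an unadjusted p under 0.05, Gpr34 was lower (log2 fold change -1.37, SE 0.603, adjusted p = 0.272) and Fcrls higher (1.94, SE 0.905, adjusted p = 0.304). DESeq2 gave an adjusted p for 1 of the 7, which was not called, and 1 was lower at an unadjusted p under 0.05. P2ry12 was at 45.2 and 20.7 unscaled CPM in those control spots and 14.5 and 17.2 in those knockout spots, without overlap (log2 fold change -1.06, SE 0.550, adjusted p = 0.365). The share of 11098 genes called there was 1.71% lower and 1.41% higher, so this comparison found few differences in any gene.

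The difference of the knockout change between the 2 classes of spots was tested as an interaction, which called 0.503% of genes lower and 0.619% higher. P2ry12 gave 0.64 (SE 0.490, adjusted p = 0.772), and 8 of the 9 members did not pass. Fcrls passed at 2.80 (SE 0.790, adjusted p = 0.0393) on 0 and 2 Fcrls UMIs in the control spots with phagocyte transcripts. Without control 1 its adjusted p was 0.632, without knockout 1 0.479 and without knockout 2 0.608, and with another random thinning 0.311.

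Graded by the number of Gpnmb and Lgals3 UMIs in a spot, the mean of the summed 9 genes was higher, not lower, in knockout spots with more of them. In knockout 1 the mean sum of the 9 genes was 0.771 UMIs per spot of 5000 at 0 phagocyte UMIs (2428 spots), 0.967 at 1 (398 spots), 1.02 at 2 (85 spots) and 2.09 at 3 to 4 (33 spots). The 8 spots of knockout 1 with 5 or more averaged 4.00 and are too few to carry the order. In knockout 2 the same means were 0.823, 1.10, 1.66, 1.75 and 2.63, the last over 24 spots. Control spots with 0 phagocyte UMIs averaged 1.02 and 1.07. The sum of the 8 genes other than Csf1r showed the same order, with 0.385 at 0 and 0.939 at 3 to 4 in knockout 1, and 0.422 and 0.896 in knockout 2. Single genes did not all follow the sum. P2ry12 in knockout 1 averaged 0.0721, 0.0578 and 0.0471 UMIs per spot at 0, 1 and 2 phagocyte UMIs, and 0.182 at 3 to 4, from 6 UMIs. Tmem119 was lower at 3 to 4 than at 0 in both knockouts, at 0.0303 against 0.0651 and at 0.0417 against 0.0688, from 1 and 2 UMIs. Siglech had 0 UMIs in the 48 spots of knockout 2 at 3 to 4 and in the 24 at 5 or more.

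The summed UMIs of a list of myeloid genes were higher in the same spots, by a larger factor. This list of 16 genes, called pan-myeloid here, holds the complement genes C1qb and C1qc and the Fc receptor genes Fcgr3 and Fcer1g among others. It averaged 4.41 UMIs per spot at 0 phagocyte UMIs in knockout 1 and 14.2 at 3 to 4. In knockout 2 it averaged 4.35 and 10.6, and in the controls 2.07 and 2.16 at 0. Per 1000 pan-myeloid UMIs, the 9 genes together had 175 at 0 and 148 at 3 to 4 in knockout 1, and 189 and 164 in knockout 2. Control spots at 0 had 493 and 496. The step between genotypes in spots with no phagocyte UMI is larger than the range across bins of at least 20 spots within either knockout. That range runs from 108 to 175 in knockout 1 and from 83.7 to 189 in knockout 2. P2ry12 alone had 16.3, 8.99, 4.96 and 12.8 per 1000 at 0, 1, 2 and 3 to 4 phagocyte UMIs in knockout 1. In knockout 2 it had 17.4, 11.9, 8.67 and 17.6. The values at 2 and at 3 to 4 rest on 4 and 6 P2ry12 UMIs in knockout 1 and on 8 and 9 in knockout 2. Control spots at 0 had 104 and 107 for P2ry12. Both parts of the 9-gene ratio make the step between genotypes, and for that sum the pan-myeloid part changed more. In spots at 0 the 9 genes averaged 1.02 and 1.07 UMIs in the controls against 0.771 and 0.823 in the knockouts. The pan-myeloid genes averaged 2.07 and 2.16 against 4.41 and 4.35. Csf1r is in the sum of 9 and was higher in the knockouts. Without Csf1r the other members averaged 0.738 and 0.792 in the controls against 0.385 and 0.422 in the knockouts. P2ry12 alone averaged 0.216 and 0.231 against 0.0721 and 0.0757. Over single spots, the correlation of the 9 genes' summed UMIs with phagocyte UMIs was 0.0189 and 0.00860 in the controls against 0.134 and 0.166 in the knockouts. These are descriptions over spots of 1 section each, with sparse counts at an equal depth.

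**Figure D3:**
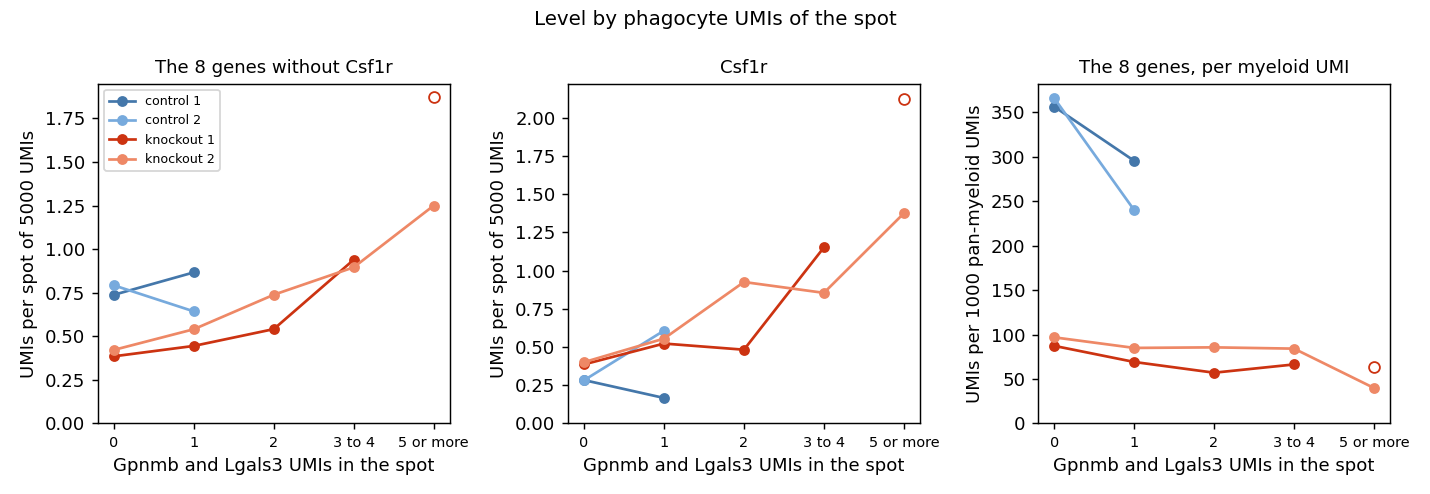
Mean level against the number of Gpnmb and Lgals3 UMIs in spots of 5000 UMIs, per library: UMIs per spot of the 8 genes without Csf1r (left) and of Csf1r (middle), and UMIs of the 8 genes per 1000 pan-myeloid UMIs (right). Control points stop at 1 UMI, and the open symbol marks the 8 spots of knockout 1 with 5 or more. The left panel rises in both knockouts, while the right panel starts at 356 and 366 in the controls against 87.3 and 96.9 in the knockouts.

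Measured against the summed UMIs of the pan-myeloid list, every one of the 9 genes was lower in both knockout sections than in both control sections. On that scale most genes of any kind were called lower too (84.3%), since the pan-myeloid sum itself was higher in the knockouts. The 16 pan-myeloid genes themselves summed to 364 and 410 unscaled CPM in the controls against 880 and 853 in the knockouts, with 14 called higher, 0 lower and 2 (Aif1 and Itgam) not passing. C1qa, C1qb and C1qc gave 2506, 3055 and 2396 of the 18014 UMIs in control 1 and 7612, 8102 and 7515 of 46848 in knockout 1. Aif1 was at 9.50 and 10.4 CPM in the controls against 9.53 and 9.20 in the knockouts. The direction of Csf1r and Sall1 on this scale thus depends on the genes in the list. Per 1000 of their UMIs, P2ry12 had 105 and 108 in the controls against 15.1 and 15.2 in the knockouts. Csf1r had 134 and 138 against 87.3 and 92.3, so its direction turned with this scale, and Sall1 had 28.0 and 28.4 against 13.3 and 14.1. The 9 genes together had 498 and 506 against 171 and 182. When edgeR's library sizes were set to the pan-myeloid sum, the median of all genes moved to -1.09, 84.3% of genes were called lower and 3.76% higher. On that scale Csf1r was at -0.60 (adjusted p = 0.000110), a smaller fall than the median gene, Sall1 at -1.05, near the median, and P2ry12 at -2.81.

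**Figure D4:**
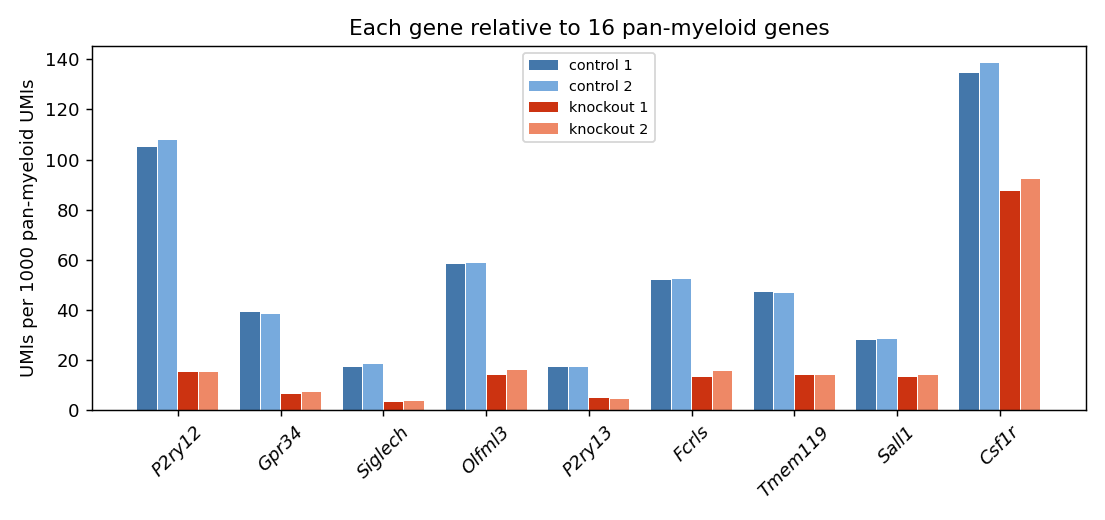
UMIs of each of the 9 genes per 1000 UMIs of the 16 pan-myeloid genes, over whole sections, 1 bar per library. Every knockout bar is below both control bars of its gene, from 15.1 and 15.2 against 105 and 108 in P2ry12 to 87.3 and 92.3 against 134 and 138 in Csf1r. With library sizes set to the pan-myeloid sum, 84.3% of all genes tested were called lower.

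Sections may hold different amounts of each brain region, so spots of at least 5000 UMIs were also assigned to the highest of 7 region lists. White matter, read from oligodendrocyte genes, took 35.1% and 40.6% of control spots but 15.7% and 11.8% of knockout spots, in which those genes fell. Striatum took 7.32% and 5.63% against 14.2% and 14.9%, and midbrain and hindbrain 5.38% and 4.65% against 12.0% and 10.7%. Genes of other lists changed too, such as Penk (74.2 and 64.6 against 235 and 257 CPM) and Agrp (16.9 and 18.9 against 0.482 and 0.481 CPM). A region may thus hold different tissue in the 2 groups. P2ry12 was called lower in all 7 regions, without overlap of the groups. The call in hypothalamus, over 169 to 299 spots a library, was lost by DESeq2 (adjusted p = 0.138) and without control 2 (0.0545). Its log2 fold change ran from -1.17 in cortex (34.8 and 37.3 against 18.3 and 14.8 unscaled CPM) to -1.95 in midbrain and hindbrain (36.1 and 50.4 against 8.47 and 13.98). It was -1.39 in white matter, -1.45 in hypothalamus, -1.63 in thalamus, -1.75 in hippocampus and -1.79 in striatum. With equal numbers of spots per region, P2ry12 stood at -1.53 over the whole section and all 7 genes were still called lower, Fcrls at -0.42 (adjusted p = 0.0265).

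The other members passed in fewer regions. Olfml3 was called lower in 5 of 7 regions, the exceptions being cortex and hippocampus, and Gpr34 in 4, cortex, hippocampus, midbrain and hindbrain, and white matter. Tmem119 was called lower in cortex alone of 7, P2ry13 in cortex alone of 3 tested, Siglech in 0 of 4 tested and Fcrls in 0 of 7. Of these 11 calls, DESeq2 made 1, Gpr34 in cortex, and each of the others was lost when at least 1 of the 4 libraries was left out. Csf1r was called higher in cortex (log2 fold change 1.00, SE 0.132), white matter (0.95, SE 0.131) and hippocampus (0.67, SE 0.138), and was at -0.02 (SE 0.209) in midbrain and hindbrain; by DESeq2 the rise in hippocampus had an adjusted p of 0.0516. Among all genes the shares called lower and higher were 13.5% and 14.6% in cortex, 9.82% and 10.2% in hippocampus, 9.90% and 10.9% in white matter, 6.89% and 7.11% in striatum, 5.95% and 5.96% in thalamus, 5.40% and 4.75% in hypothalamus, and 3.35% and 3.21% in midbrain and hindbrain.

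Across regions, the fall of P2ry12 did not follow the share of spots with phagocyte transcripts in a fixed order, and members differed in this. Knockout spots with phagocyte UMIs made up 22.9% and 26.3% of cortex, where P2ry12 fell least. They made up 11.02% and 12.1% of midbrain and hindbrain, where its point estimate was lowest. Hippocampus went the other way, with a larger fall (-1.75, at 19.6% and 26.7%) than white matter (-1.39, at 14.1% and 20.7%). Over the 7 regions the correlation of the log2 fold change with the mean share was 0.46 for P2ry12, 0.30 for Gpr34, 0.88 for Olfml3, 0.78 for Fcrls and 0.74 for Csf1r, and -0.31 for Tmem119. Of the members tested in fewer regions, Sall1 was at -0.44 (6 regions), Siglech at 0.47 (4 regions) and P2ry13 at -0.97 (3 regions). A positive value means a smaller fall, or a larger rise, where phagocyte transcripts were more frequent. The 7 regions come from the same 4 libraries and are no replicates, so these are descriptions.

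**Figure D5:**
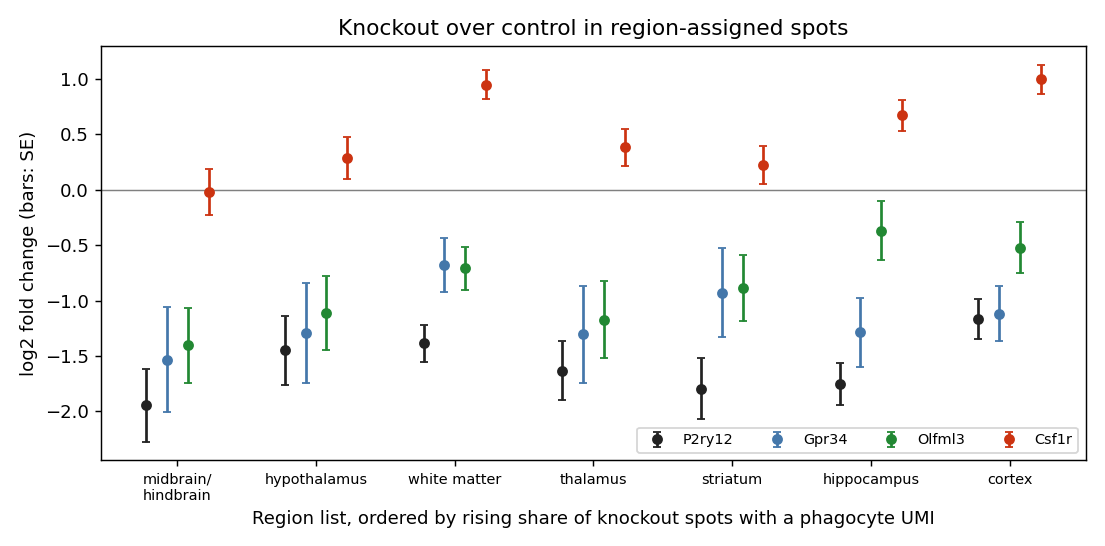
Log2 fold change, knockout over control, with its SE for P2ry12, Gpr34, Olfml3 and Csf1r in spots assigned to 7 region lists, ordered by the rising share of knockout spots with Gpnmb or Lgals3 UMIs. P2ry12 is below 0 in each region, from -1.95 at the left to -1.17 at the right, and Csf1r runs from -0.02 to 1.00.

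The wider homeostatic set did not move as one. Of 17 other genes used as homeostatic markers, 4 fell, 8 rose and 5 did not pass. Of all genes tested, 18.3% were called lower and 20.1% higher. Slc2a5, a fructose transporter, went from 3.48 and 3.94 CPM to 1.34 and 1.57 CPM (log2 fold change -1.34, SE 0.167), and Crybb1, a crystallin, from 5.55 and 6.48 to 3.41 and 2.61 CPM (-1.01, SE 0.166). Ltc4s, which makes leukotriene C4, rose 3.81-fold, Sparc, a matrix protein that vessels also make, 2.51-fold and the transporter Slco2b1 1.76-fold. Cx3cr1, the fractalkine receptor, named after its values were seen, measured 16.3 and 21.3 CPM in control 1 and 2 and 17.8 and 14.8 CPM in knockout 1 and 2 and did not pass (adjusted p = 0.273). Cst3, the protease inhibitor cystatin C (3364 and 3719 against 3804 and 3240 CPM), did not pass either.

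Genes that maintain microglia mostly rose. Of 13 tested, 10 rose, 1 fell and 2 did not pass, beside 20.1% of all genes called higher and 18.3% lower. Among the ligands, Csf1 rose 1.25-fold, Tgfb1 2.29-fold, and Il34, made by neurons, measured 40.1 and 35.0 CPM in control 1 and 2 and 37.9 and 36.7 CPM in knockout 1 and 2 (adjusted p = 0.936). Of the receptors of transforming growth factor β, Tgfbr1 fell by 0.26 on the log2 scale (SE 0.0771, adjusted p = 0.0349) and Tgfbr2 rose 1.63-fold. The transcription factors Spi1 (PU.1), Irf8 and Runx1 rose by 1.66-fold, 1.90-fold and 3.06-fold, in that order, with SEs of 0.131 to 0.168 on the log2 scale. The direction of such rises is relative to all RNA of the section, in which the sum of the pan-myeloid list rose.

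The tested markers of activated phagocytes, monocytes and neutrophils mostly rose, against the direction of 7 of the 9 members. Those of border macrophages rose in part. Among all genes tested over whole sections, 20.1% were called higher and 18.3% lower. Of 20 genes of activated phagocytes 13 rose and 1 fell, led by Capg (12.7-fold), the secreted phosphoprotein gene Spp1 (8.20-fold) and the lysozyme gene Lyz2 (4.52-fold). Of 11 genes of border macrophages, which line vessels and meninges, 4 rose, 1 fell and 6 did not pass. Their sum was 17.8 and 21.7 unscaled CPM in the controls against 43.5 and 47.4 in the knockouts, with none at 0. Most of that rise was of Stab1 and F13a1, with 304 and 47 of 878 UMIs in control 1 and 1051 and 424 of 2313 in knockout 1. Stab1 rose 2.99-fold, F13a1 6.01-fold and the mannose receptor gene Mrc1 2.02-fold, while Cbr2 fell by 0.69 on the log2 scale. Others of the list moved little or down, such as Pf4 (3.75 and 4.28 against 3.91 and 4.22 CPM) and Clec10a (0.655 and 0.846 against 0.556 and 0.364 CPM). Of 8 monocyte genes, 6 were tested and 4 rose, among them Ms4a6c (24.9-fold) and Chil3 (24.3-fold), and the list summed to 2.02 and 1.58 against 17.8 and 21.2 unscaled CPM. The defining monocyte genes Ly6c2 and Ccr2 stayed between 0.102 and 0.309 CPM in every library. Of 8 neutrophil genes 7 were tested, 5 rose and 1 fell. The 3 genes of plasmacytoid dendritic cells, which also express Siglech, summed to 0.485 and 0.360 unscaled CPM in the controls against 2.10 and 1.83 in the knockouts. That rise was of Ly6d alone (0.307 and 0.179 against 1.97 and 1.70 CPM), the only 1 of 3 testable. Ccr9 (0.143 and 0.130 against 0.111 and 0.0520 CPM) and Klk1 (0.0409 and 0.0651 against 0 and 0.0130 CPM) were lower, on few UMIs. Platelet genes, since platelets also express P2ry12, summed to 10.8 and 9.44 unscaled CPM in control 1 and 2 against 10.3 and 12.3 in knockout 1 and 2. Of these 6 genes 4 were tested and 1 rose, Ppbp (0.102 and 0.0651 against 0.519 and 0.585 CPM). The part of these cells in the members' levels was not tested.

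Among the genes whose counts over spots were most like those of the 9 genes were Apoe, C1qc, C1qb, Cst3, C1qa, Ctss and Gfap. Likeness was the Pearson correlation over spots of 5000 UMIs between log counts of the gene and of the members' sum, averaged over the 4 libraries, among 11383 genes with enough counts. It ran from 0.213 for Apoe, a lipid carrier of astrocytes and phagocytes, to 0.179 for Gfap, an astrocyte filament gene. These spots share a section and neighbouring cells, and the correlations are low at such sparse counts.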

How the data were processed

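The authors deposited raw UMI counts for each gene in each spot of 4 Visium libraries, with no normalisation. Reads were counted with Space Ranger on mm10, per the submitters' processing notes, and the headers name Cell Ranger 4; the release of the annotation is not given in the sources used here. Neither images nor positions of spots were used here. Counts of spots with at least 1000 UMIs, with no call of spots over tissue and no doublet caller, were summed per library. They were tested in R 4.3.3 with edgeR 4.0.16 (TMM, filterByExpr, quasi-likelihood test, Benjamini-Hochberg over all genes tested, threshold 0.05), knockout against control, with SEs from the fitted change and its statistic. Spots with at least 5000 UMIs were thinned at random to 5000, classed by at least 1 UMI of Gpnmb or Lgals3, which were left out of the calls, and summed per library and class. The within-library comparison had the library as a block, and the classes' difference by genotype was an interaction term. Regions were the highest mean z score of 7 marker lists and needed at least 50 spots in every library. The procedure was tested on simulated counts. The controls differed from each other beyond sampling noise (chi-square per degree of freedom 56.8 over 16295 genes), as did the knockouts (17.8), so each library counted as 1 replicate. Nothing in the titles says that the replicate numbers pair the libraries, so the main fits had no replicate block. The correlation between the replicate differences of the groups (r = -0.24) cannot decide this. The 9 genes, the gene lists and the tests were chosen with earlier results of these data known. The text names the 9 genes, Gpnmb, Lgals3 and Pdcd10, of other lists up to 5 genes with the smallest p past the threshold, the P2Y and maintenance genes that were tested, defining markers of absent cells, and genes among the 8 most like the members; some genes that this rule names are not reported here. Alternatives were DESeq2 1.42.0, leaving out each library, replicate blocks, other spot minimums, thinning, class rules and scalings. Python 3.11.15 with numpy 2.4.6, pandas 2.3.3 and scipy 1.17.1 did the rest, and figures were drawn with matplotlib 3.10.9.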

Additional observations from a re-analysis of the deposited data

Results flagged for a closer look

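Fcrls, the scavenger receptor gene, changed differently with genotype in spots with and without phagocyte transcripts by the test of that difference (interaction 2.80 on the log2 scale, SE 0.790, edgeR adjusted p = 0.0393). The control spots with phagocyte transcripts held 0 and 2 Fcrls UMIs, against 56 and 108 in the knockouts. Over the alternatives the interaction ran from 1.47 to 11.2, and its adjusted p from 0.00808 on unthinned counts to 0.650 with the class set by Gpnmb alone.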

How the results depend on the processing

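Over whole sections and in spots without phagocyte transcripts, 7 members were called lower under every alternative run except the thinning of each spot to 1000 UMIs, where Fcrls missed the threshold and 6 were lower, and the scaling to pan-myeloid genes, where all 9 were lower and 0 higher (Csf1r -0.60, Sall1 -1.05). Csf1r was called higher under all but that scaling, on which 84.3% of all genes were called lower. Sall1, never called otherwise, also turned sign over whole sections when 1 library was left out (-0.069 to 0.16) and at 1000 UMIs per spot (-0.061), and in spots without phagocyte transcripts when 1 library was left out (-0.055 to 0.16) and with another thinning (-0.30). In spots with phagocyte transcripts, unthinned counts gave 1 member lower, and leaving out a library gave 0 to 1 higher. Within the knockouts, the count of members higher was 0 by DESeq2 (3 of 9 with an adjusted p), 0 to 3 without 1 library and 5 with the class set by 7 genes, an alternative chosen after seeing the data; P2ry12 ran from -0.0053 to 0.16 without 1 library, and Tmem119 was at -0.015 by Gpnmb alone, -0.031 by full depth (also added) and -0.045 by 7 genes. The interaction called 0 members by DESeq2, which gave an adjusted p for 1 of the 9, by Gpnmb or Lgals3 alone and with another thinning, and 0 to 1 without 1 library. By region, DESeq2 called 2 members lower in cortex, 1 each in hippocampus, midbrain and hindbrain, striatum, thalamus and white matter, 0 in hypothalamus, and 0 higher in hippocampus. Without 1 library the counts lower were 2 to 4 in cortex, 1 to 4 in hippocampus, 1 to 2 in hypothalamus, midbrain and hindbrain, striatum and thalamus, and 1 to 3 in white matter, where 1 to 2 were higher. The cause of these changes was not tested.

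Nothing in the titles says that the replicate numbers pair the libraries. With the replicate block, 7 members were lower and 1 higher over whole sections, with 2712 of all genes lower and 3101 higher against 3207 and 3532. With the numbers crossed, added because the replicate differences ran against each other, 3968 were lower and 4208 higher. The block moved no count of member calls past 1.5 times. A class at 2 UMIs could not be run for spots with phagocyte transcripts, within controls or as an interaction, since each control had 1 such spot. Depth limits the control spots with phagocyte transcripts, which held 3 to 7 UMIs of P2ry12.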

Other observations

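Other homeostatic genes within the knockouts also were not generally lower where phagocyte transcripts were counted. Of 17 such genes, 7 were called higher and 2 lower in those spots, beside 5.47% and 6.10% of all genes. Ltc4s differed by 0.63 on the log2 scale (SE 0.135) and the UDP receptor gene P2ry6 by 0.86 (SE 0.298), while Sparc was lower (-0.41, SE 0.0622). Slc2a5 and Crybb1, which fell over whole sections, were at 0.87 (SE 0.4996) and 0.75 (SE 0.391) and did not pass. All 4 libraries enter this fit, and the calls come from 2 knockout sections. Of the 16 pan-myeloid genes, 15 were higher in the same spots, among them C1qb (0.80, SE 0.0531). Of 8 border macrophage genes that could be tested, 4 were higher, among them F13a1 (1.20, SE 0.214) and Mrc1 (1.02, SE 0.251).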
